A study of Mus musculus with 6 samples.

Results

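The genes described here encode the structural proteins of the extracellular matrix: the collagen chains, the laminin chains, the basement membrane proteins nidogen and perlecan, and fibronectin. They were chosen by name, as the protein-coding genes of GENCODE mouse release M21 whose symbol marks a collagen alpha chain or a laminin alpha, beta or gamma chain, together with Nid1, Nid2, Hspg2 and Fn1. The rule found 59 genes among 21976 protein-coding genes and 55421 gene IDs in the count tables. Of the 59, 20 belong to the basement membrane class (type IV collagens, laminins, nidogens and perlecan), 11 to the fibrillar class (chains of types I, II, III, V, XI, XXIV and XXVII), 27 are other collagens and 1 is fibronectin.

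The libraries were made from pancreatic islets of wild-type (WT) C57BL/6 mice in 2 groups of 3, one that received the ligand insB:9-23 and one that received vehicle. The name insB:9-23 is that of a fragment of the insulin B chain. All 6 libraries share genotype and strain. The labels do not settle whether the ligand was given to the mice or to isolated islets, and they state no dose, route, duration, sex or age. They also do not say how many animals a library holds, so every p-value here is set by differences between libraries that may be technical only.

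Collagens are built from 3 alpha chains wound into a triple helix. Type IV collagen and laminins each assemble into a sheet, nidogens and perlecan link the sheets, and the result is the basement membrane that lies under endothelium and epithelium. In mouse islets the basement membrane follows the capillaries and is made largely by endothelial cells. Fibrillar collagens form the fibres of connective tissue and are made mainly by fibroblasts and stellate cells.

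Total counts were 53805531 to 58445046 per library in the insB:9-23 group and 52052808 to 58880189 in the vehicle group. Values are in CPM (counts per 1000000 at library sizes scaled by TMM, a factor that aligns the bulk of genes), in RPKM (CPM per kilobase of exon) where genes are compared with each other, or as log2 fold changes of insB:9-23 over vehicle. A call is an adjusted p below 0.05 over all 17016 genes tested. The islet label was checked against beta cell markers. Ins2 averaged 69960 ± 7059 CPM in the insB:9-23 group and 65050 ± 5547 CPM in the vehicle group (SD, n = 3 each). Mafa, a beta cell transcription factor, was at 0 counts in all 6 libraries. Why it had no counts was not tested, so the 0 is not read as absence of its RNA. Nkx6-1 ran from 45.3 to 275.3 CPM in insB:9-23 libraries and from 31.8 to 321.7 CPM in vehicle libraries. Pdx1 had 54.3 CPM in vehicle replicate 1 and 125.1 to 156.6 CPM in the other libraries. The 10 beta cell markers summed to 117700 to 130900 CPM in insB:9-23 libraries and 113600 to 126000 CPM in vehicle libraries. Of the 9 tested, 6 had a log2 fold change below 0, and 4 (Slc2a2, Ucn3, G6pc2 and Slc30a8) were lower without overlap between the groups, beside 7.12% of all genes tested. Acinar markers, 18 genes of digestive enzyme cells, took 17.5% to 26.5% of counts in insB:9-23 libraries and 15.9% to 18.5% in vehicle libraries, with the highest share in insB:9-23 replicate 3, and 17 of the 18 had a log2 fold change above 0. That library also had the lowest TMM factor, 0.806, against 1.00 to 1.08 in the other 5.

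None of the collagen, laminin or related genes passed the test between insB:9-23 and vehicle. Of the 59 genes, 49 had enough counts to be tested and edgeR called 0 of them (smallest adjusted p = 0.88), beside 0.0823% of all genes tested (14 of 17016), 0.0529% in the lower and 0.0294% in the higher direction. DESeq2 called 0 of the 49 too, beside 0.685% of all genes, and limma-voom called 0, beside 0.0999%. At an unadjusted p below 0.05 edgeR had 1 gene in the lower direction (Col4a1), beside 2.81% of all genes, and 1 in the higher direction (Col25a1), beside 2.74% (5.55% in both directions). At that threshold DESeq2 had 3 of the 49, beside 6.59% of all genes, and limma-voom 2, beside 6.21%. These counts are near or below the share over all genes.

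Among the 59 genes, the basement membrane class held most of the RNA per length. Its share of their summed RPKM was 60.9%, averaged over the 6 libraries. The fibrillar class held 9.09%, the other collagens 29.6% and fibronectin 0.396%. Matrix genes outside the 59 are not part of these shares. The most abundant chain was Col4a1 with a mean of 19.6 RPKM, followed by Col6a6, an alpha chain of the beaded filament collagen VI, with 15.2 RPKM, and Col4a2 with 13.9 RPKM. Perlecan (Hspg2) had 7.19 RPKM, the laminin gamma1 chain Lamc1 5.72 RPKM and nidogen-1 (Nid1) 4.80 RPKM. The most abundant fibrillar chain, Col3a1, had 3.27 RPKM. These lengths are the union of all annotated exons, which can exceed the length of the transcript in use.

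**Figure D1:**
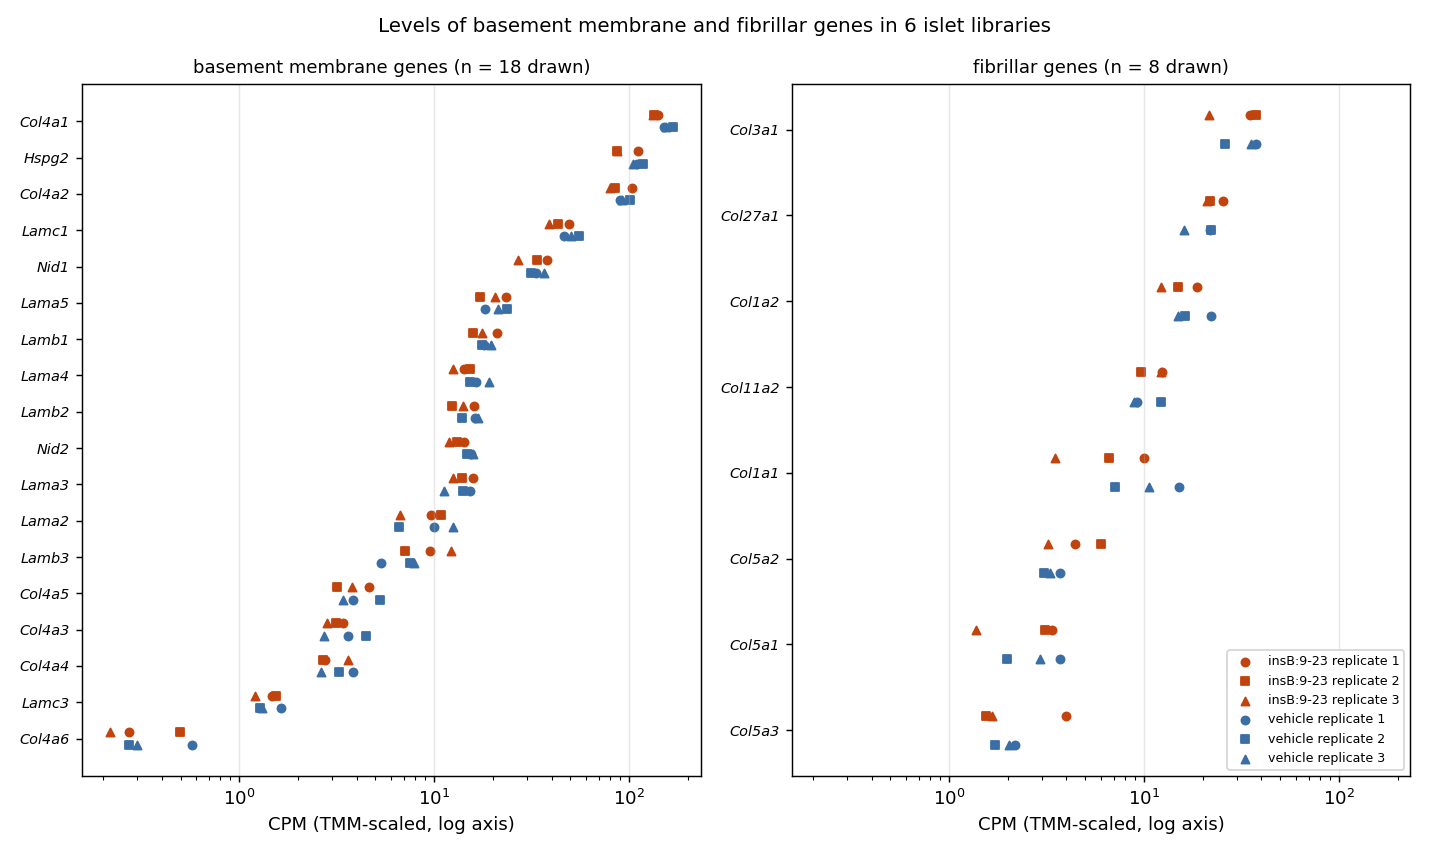
CPM of each tested gene of the basement membrane class (left, 18 of 19 genes) and the fibrillar class (right, 8 genes) in every library, on a log axis, with 3 insB:9-23 points (orange) above 3 vehicle points (blue) for each gene. Col4a1 sits between 132 and 140 CPM in insB:9-23 libraries and between 151 and 167 CPM in vehicle libraries. Most other genes overlap between the groups.

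Col4a1 and Col4a2 encode the chains of the common type IV collagen network. Col4a1, on chromosome 8 (11198423 to 11312826, minus strand), had 140, 134 and 132 CPM in insB:9-23 replicates 1 to 3 and 151, 167 and 155 CPM in vehicle replicates 1 to 3. All 3 insB:9-23 libraries lay below all 3 vehicle libraries, with a log2 fold change of -0.21 ± 0.06 (SE; unadjusted p = 0.015, edgeR adjusted p = 0.88). Col4a2, beside it on the plus strand (11312805 to 11449287), had 104, 84.5 and 80.1 CPM in insB:9-23 libraries and 89.3, 101 and 92.2 CPM in vehicle libraries. Its groups overlapped, and insB:9-23 replicate 1 was the highest library of all 6 (log2 fold change -0.07 ± 0.12 SE, edgeR adjusted p = 0.94).

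The 6 type IV genes lie in 3 head-to-head pairs, each pair starting from a shared stretch of DNA. The annotated first exons of Col4a1 and Col4a2 overlap by 22 bases. Col4a4 and Col4a3 on chromosome 1 are 71 bases apart, and Col4a6 and Col4a5 on chromosome X are 1308 bases apart. The whole gap of the Col4a4 and Col4a3 pair, the stretches before Col4a6 and Col4a5, and for contrast those before perlecan and before the fibrillar gene Col3a1 are shown here because they hold the start regions of genes whose levels are set side by side below. They are RefSeq promoter sequences on GRCm38.p6, 5′ to 3′ on the strand of the named gene, cut to bases outside every annotated exon. Capitals mark the CCAAT box, the core of the GC box, GGGCGG, on either strand, and the core of the TATA box, TATAAA. On the other strand, as in the Col4a6 stretch, the GC box core reads as its reverse complement. The Col4a4 stretch holds none of them.
Col4a4 (chr1:82586850-82586920, minus strand): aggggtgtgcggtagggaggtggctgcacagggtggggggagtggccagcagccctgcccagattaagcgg
Col4a6 (chrX:141474077-141474326, minus strand): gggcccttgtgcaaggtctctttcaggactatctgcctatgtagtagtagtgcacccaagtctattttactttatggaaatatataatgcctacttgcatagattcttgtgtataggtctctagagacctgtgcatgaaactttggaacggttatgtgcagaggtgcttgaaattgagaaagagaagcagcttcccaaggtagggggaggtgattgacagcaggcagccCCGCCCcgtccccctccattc
Col4a5 (chrX:141475169-141475384, plus strand): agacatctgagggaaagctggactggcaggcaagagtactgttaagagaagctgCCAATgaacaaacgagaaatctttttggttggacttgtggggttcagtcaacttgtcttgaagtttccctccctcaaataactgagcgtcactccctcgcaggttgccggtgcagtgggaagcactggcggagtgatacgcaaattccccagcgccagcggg
Hspg2 (chr4:137468553-137468768, plus strand): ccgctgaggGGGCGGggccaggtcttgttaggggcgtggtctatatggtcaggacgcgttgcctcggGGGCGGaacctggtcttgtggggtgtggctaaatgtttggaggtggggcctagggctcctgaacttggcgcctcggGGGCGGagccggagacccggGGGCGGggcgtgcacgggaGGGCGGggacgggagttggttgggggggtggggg
Col3a1 (chr1:45311288-45311537, plus strand): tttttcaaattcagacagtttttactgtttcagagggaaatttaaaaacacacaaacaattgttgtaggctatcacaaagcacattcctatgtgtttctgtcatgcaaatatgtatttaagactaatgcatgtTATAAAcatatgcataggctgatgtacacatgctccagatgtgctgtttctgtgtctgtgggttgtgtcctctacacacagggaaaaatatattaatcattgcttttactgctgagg

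RefSeq promoter entries were matched for 42 of the 59 genes. In the 250 bases before the start, GGGCGG was in 7 of 13 windows of basement membrane genes, 6 of 8 windows of fibrillar genes and 32.7% of all 32851 windows. CCAAT was in 5 of 13, 3 of 8 and 33.8%. TATAAA was in 0 of 13, 2 of 8 and 12.4%. A match describes the letters only.

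Col4a3, Col4a4 and Col4a5, the chains of the glomerular basement membrane, were at low levels in islets. Col4a3 averaged 3.12 ± 0.29 CPM in the insB:9-23 group and 3.61 ± 0.876 CPM in the vehicle group, and its partner Col4a4 averaged 3.03 ± 0.52 and 3.23 ± 0.596 CPM in the same order (SD, n = 3 each). Col4a5 averaged 3.86 ± 0.724 CPM in the insB:9-23 group and 4.17 ± 0.968 CPM in the vehicle group (SD, n = 3 each), and Col4a6 was below 0.6 CPM in every library, with 10 to 36 counts. All 6 type IV chains had a log2 fold change below 0, from -0.21 to -0.07, and all but Col4a1 overlapped between the groups.

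Partner chains were also set against each other within a library. The RPKM ratio of Col4a1 to Col4a2 was 1.20, 1.41 and 1.46 in insB:9-23 libraries and 1.498, 1.46 and 1.49 in vehicle libraries. The ratio of Col4a3 to Col4a4 was 1.32, 1.23 and 0.827 in insB:9-23 libraries and 1.01, 1.47 and 1.11 in vehicle libraries. The insB:9-23 and vehicle values of Col4a1 to Col4a2 nearly touch at 1.46, and those of Col4a3 to Col4a4 overlap. The 15 chain ratios computed were mostly chosen after values had been seen. Of them 3 had groups without overlap, among them Col4a1 to Col4a2 and Col5a2 to Col1a1. For single genes, groups did not overlap in the lower direction for 7.12% and in the higher direction for 6.4% of all genes tested. No such share was computed for ratios, and several of the ratios share a gene, so they are not independent. With 3 against 3 libraries an exact permutation test cannot give a two-sided p below 0.10, so these ratios were not tested.

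A laminin is a trimer of 1 alpha, 1 beta and 1 gamma chain, and chains of all 3 kinds were detected. Those described here followed the order, by RPKM, Lamc1 (5.72), Lamb2 (2.45), Lamb1 (1.84), Lama5 (1.82), Lama3 (1.29), Lama4 (1.28), Lamb3 (1.25), Lama2 (0.573) and Lamc3 (0.231). Lama1, the alpha chain of the early embryo, had 0 to 12 counts and was not tested. Of the 10 laminin genes tested, 8 had a log2 fold change below 0, with a median of -0.08.

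Lamc1, the gamma chain shared by most laminins, on chromosome 1 (153218922 to 153332786), had 49.3, 43.2 and 39.0 CPM in insB:9-23 libraries and 46.2, 55.6 and 50.6 CPM in vehicle libraries. The groups overlapped (log2 fold change -0.21 ± 0.12 SE, edgeR adjusted p = 0.88). Lama4 and Lama5 are the alpha chains of vessel walls. Lama4 had 14.3, 15.2 and 12.5 CPM in insB:9-23 libraries and 16.3, 15.2 and 19.0 CPM in vehicle libraries. The highest insB:9-23 value, 15.22 CPM, lay only just under the lowest vehicle value, 15.24 CPM (log2 fold change -0.27 ± 0.13 SE, edgeR adjusted p = 0.88). Lama5 had 23.3, 17.1 and 20.5 CPM in insB:9-23 libraries and 18.1, 23.7 and 21.4 CPM in vehicle libraries, over the same range in both groups.

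Lama3 and Lamb3 are an alpha and a beta chain of epithelial laminin. Lamb3 had 9.53, 7.10 and 12.2 CPM in insB:9-23 libraries and 5.32, 7.50 and 7.89 CPM in vehicle libraries, with the highest value in insB:9-23 replicate 3 and a log2 fold change of 0.48 ± 0.26 (SE, edgeR adjusted p = 0.88). Lama3 overlapped between the groups (log2 fold change 0.06 ± 0.16 SE). Lamb3 is named here after its values were seen. The summed duct markers, 10 genes of the ductal epithelium, were at 384.9 to 407.1 CPM in insB:9-23 libraries and 320.8 to 355.7 CPM in vehicle libraries, and 7 of the 10 had a log2 fold change above 0. Their part in the Lamb3 value was not tested.

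Nidogens and perlecan tie the laminin and collagen sheets together. Perlecan, Hspg2 on chromosome 4 (137468769 to 137570630), had 112, 87.1 and 86.8 CPM in insB:9-23 libraries and 110, 117 and 105 CPM in vehicle libraries. Replicates 2 and 3 of insB:9-23 lay below all vehicle libraries and replicate 1 did not (log2 fold change -0.22 ± 0.12 SE, edgeR adjusted p = 0.88). Nid1, on chromosome 13 (13437551 to 13512269), had 37.8, 33.7 and 26.8 CPM in insB:9-23 libraries and 33.4, 31.5 and 36.6 CPM in vehicle libraries, so that replicates 1 and 3 of insB:9-23 were the highest and the lowest of all 6. Nid2, on chromosome 14 (19751265 to 19811787), had 14.3, 13.1 and 11.9 CPM in insB:9-23 libraries and 15.4, 14.7 and 15.8 CPM in vehicle libraries, without overlap (log2 fold change -0.23 ± 0.11 SE, edgeR adjusted p = 0.88). Over 8.45% of its exon length, Nid2 shares 437 bases with Rtraf on the opposite strand, and the strand setting of the counting is not given in the sources used here.

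Of the 19 basement membrane genes tested, 17 had a log2 fold change below 0, against 48.5% of all genes tested. The class median was -0.11 against 0.01 over all genes. The 19 genes were measured in the same 6 libraries, so they do not count as 19 separate observations of the treatment. The groups did not overlap in the lower direction for 4 of the 19, Col4a1, Nid2 and Lama4 among them, beside 7.12% of all genes, and in the higher direction for 0 of the 19, beside 6.4%. The count below 0 was 11 of 19 without insB:9-23 replicate 3, and 13 of 19 when the summed acinar markers entered the model as a covariate.

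**Figure D2:**
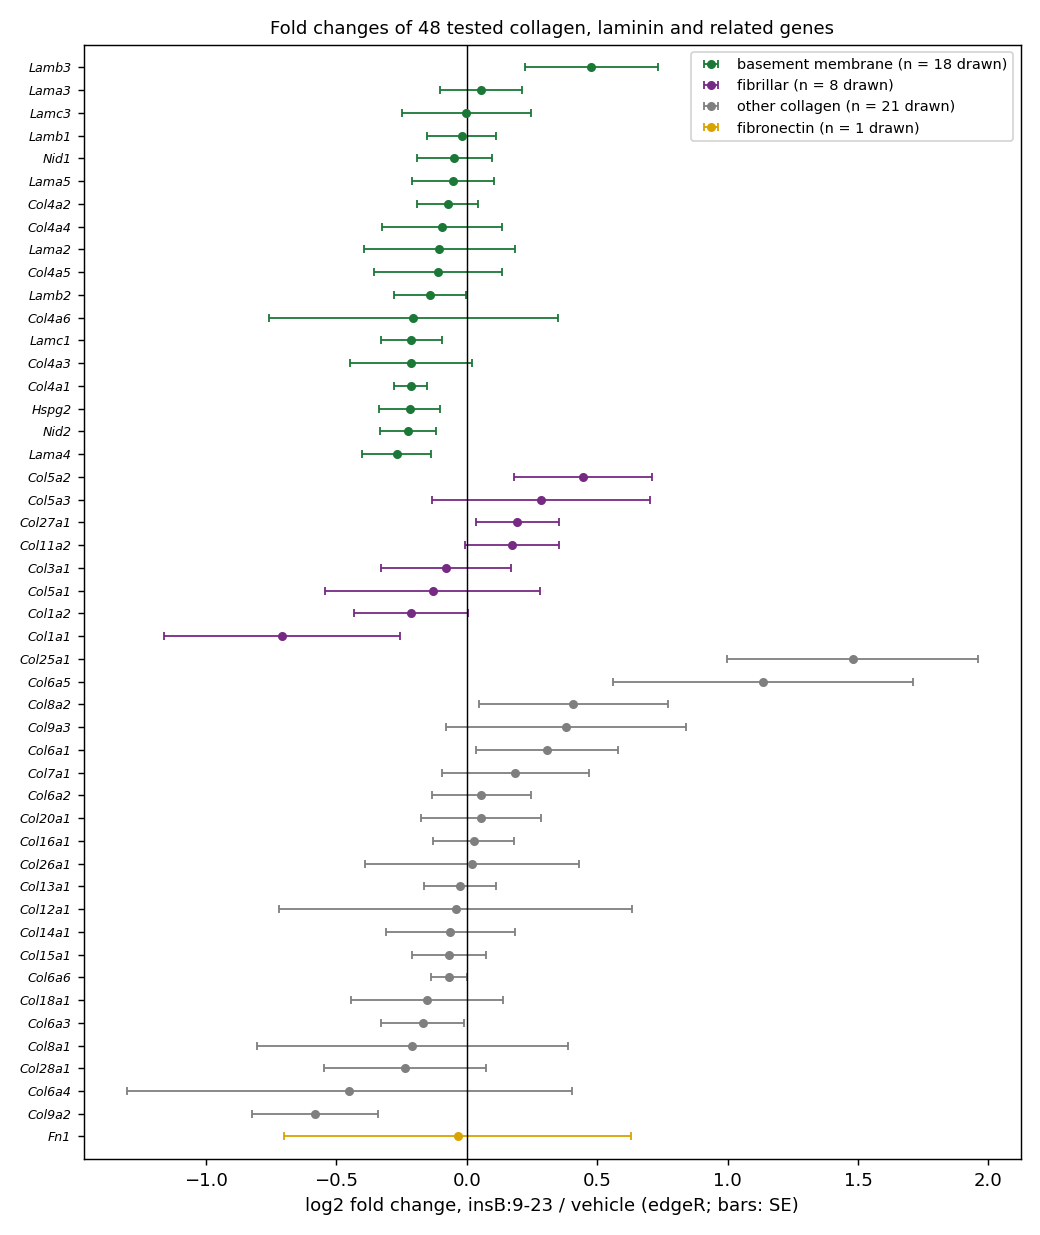
Log2 fold change of insB:9-23 over vehicle for 48 of the 49 tested genes, with bars of 1 SE, grouped by class. The 18 basement membrane genes drawn lie at or below 0, down to -0.27, except Lamb3 (0.48) and Lama3 (0.06), while the 8 fibrillar genes are split 4 and 4 between -0.71 and 0.45.

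The fibrillar chains lay on both sides of 0. Of 11 genes 8 were tested, 4 with a log2 fold change below 0 and 4 above, with a median of 0.05, and the groups overlapped for all 8. The count below 0 was 2 of 8 without insB:9-23 replicate 3, 2 of 9 without vehicle replicate 1 and 1 of 8 with the acinar covariate. Col3a1, the chain of type III collagen found in soft tissue and vessel walls, on chromosome 1 (45311538 to 45349706), had 34.8, 37.5 and 21.6 CPM in insB:9-23 libraries and 37.7, 26.0 and 35.3 CPM in vehicle libraries (log2 fold change -0.08 ± 0.25 SE, edgeR adjusted p = 0.97). The lowest value was in insB:9-23 replicate 3, and the other 5 libraries were mixed between the groups.

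Type I collagen, the main fibre of connective tissue, is built from the products of Col1a1 and Col1a2. Col1a1, on chromosome 11 (94936224 to 94953042), had 10, 6.58 and 3.5 CPM in insB:9-23 libraries and 15.1, 7.07 and 10.6 CPM in vehicle libraries. Its log2 fold change was -0.71 ± 0.45 (SE, edgeR adjusted p = 0.88), with overlapping groups and its lowest value in insB:9-23 replicate 3. The log2 fold change was -0.39 without insB:9-23 replicate 3, -0.40 without vehicle replicate 1, -1.11 without insB:9-23 replicate 1 and -0.18 with the acinar covariate. Col1a2, on chromosome 6 (4504814 to 4541544), had 18.6, 14.9 and 12.2 CPM in insB:9-23 libraries and 22.0, 16.1 and 14.9 CPM in vehicle libraries (log2 fold change -0.21 ± 0.22 SE, edgeR adjusted p = 0.91). The RPKM ratio of Col1a1 to Col1a2 averaged 0.799 ± 0.238 in the insB:9-23 group and 1.16 ± 0.288 in the vehicle group (SD, n = 3 each), with overlap.

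The type V chains co-assemble with type I fibrils and had 0.321 to 0.413 RPKM. Col5a2, which lies tail to tail with Col3a1 at a distance of 24614 bases, had 4.44, 6.05 and 3.21 CPM in insB:9-23 libraries and 3.69, 3.08 and 3.30 CPM in vehicle libraries, which overlap. Col5a1 and Col5a3 averaged under 3 CPM in both groups. Col27a1 and Col11a2, chains best known from cartilage, followed Col3a1 among fibrillar genes by RPKM, with 1.64 and 1.57. Col27a1 averaged 22.8 ± 2.36 CPM in the insB:9-23 group and 19.9 ± 3.41 CPM in the vehicle group, and Col11a2 averaged 11.4 ± 1.5 and 10.1 ± 1.86 CPM in the same order (SD, n = 3 each; edgeR adjusted p = 0.90 and 0.91). The cartilage chains Col2a1 and Col11a1, and Col24a1, had at most 24 counts in any library and were not tested.

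The classes were then summed and set against each other. Summed CPM of the 20 basement membrane genes was 600.2, 516.9 and 505.1 in insB:9-23 libraries and 579.2, 621.9 and 596.3 in vehicle libraries. Summed CPM of the 11 fibrillar genes was 113, 101 and 77.5 in insB:9-23 libraries and 116, 90.4 and 94.3 in vehicle libraries. The basement membrane sums overlapped through insB:9-23 replicate 1, and in the fibrillar sums only insB:9-23 replicate 3 lay outside the range of the vehicle libraries.

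The basement membrane sum was 5.29, 5.10 and 6.51 times the fibrillar sum in insB:9-23 libraries and 5.01, 6.88 and 6.33 times in vehicle libraries. By RPKM, which corrects for length, the ratio averaged 6.62 ± 0.939 in the insB:9-23 group and 6.98 ± 1.15 in the vehicle group (SD, n = 3 each). The difference of the mean log2 ratio of summed CPM, insB:9-23 minus vehicle, was -0.10, against an SD between replicates of 0.21. As a score over chosen genes it was given no p.

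**Figure D3:**
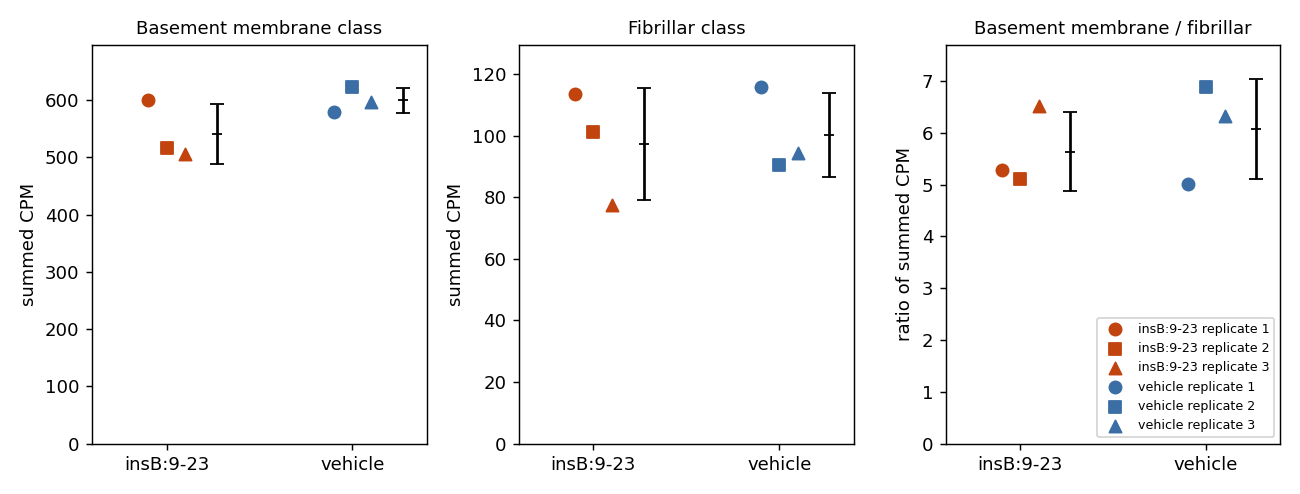
Summed CPM of the basement membrane class (left) and the fibrillar class (middle) and their ratio (right) in each library, insB:9-23 beside vehicle, with black bars for the mean and SD of 3 libraries. The basement membrane sum spans 505.1 to 600.2 CPM in insB:9-23 libraries and 579.2 to 621.9 CPM in vehicle libraries, and the ratios in insB:9-23 libraries (5.10 to 6.51) lie within those in vehicle libraries (5.01 to 6.88).

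One library stood low for many of these genes. Replicate 3 of insB:9-23 was the lowest of the 6 libraries for 24 of the 49 genes tested, among them 9 of 19 basement membrane and 4 of 8 fibrillar genes, while it was the lowest for 19.4% of all genes tested. Fn1, which encodes fibronectin, a matrix glycoprotein that binds collagen and integrins, had 6.76, 7.45 and 1.22 CPM in insB:9-23 libraries and 7.30, 4.58 and 3.94 CPM in vehicle libraries (log2 fold change -0.03 ± 0.66 SE, edgeR adjusted p = 0.99). Without replicate 3 its log2 fold change was 0.43 ± 0.31 (SE, edgeR adjusted p = 0.96).

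By summed CPM, fibroblast, mural, endothelial and macrophage markers were each lowest in that library, and Schwann cell markers were not. The endothelial and macrophage sums lay close to the next lowest library (491.3 against 498.7 CPM and 78.5 against 80.0 CPM). By summed RPKM, fibroblast and mural markers were again lowest there. Endothelial markers were at 105.2 RPKM there and 95.0 to 120.9 RPKM in the other libraries. Macrophage markers were lowest in vehicle replicate 1, with 51.4 RPKM against 56.2 RPKM there. Fibroblast and stellate markers summed to 18.0 CPM in insB:9-23 replicate 3, 22.4 and 23.6 CPM in the other insB:9-23 libraries and 21.3 to 22.3 CPM in vehicle libraries, with 5 of 10 genes below 0 and Gas1 at 0 in vehicle replicate 3. Mural markers summed to 146.7 to 178.0 CPM in insB:9-23 libraries and 170.6 to 181.4 CPM in vehicle libraries, with 9 of 10 genes below 0. Schwann cell markers summed to 47.1, 52.0 and 53.8 CPM in insB:9-23 replicates 1 to 3, so that replicate 3 was the highest of its group. In vehicle libraries they summed to 52.1 to 57.2 CPM. Most of the Schwann cell sum was the single gene Ncam1. It had 43.6, 47.7 and 48.3 CPM in insB:9-23 replicates 1 to 3 and 47.2 to 53.0 CPM in vehicle libraries. Sox10 was at 0 in insB:9-23 replicate 1 and vehicle replicate 3. Macrophage markers summed to 78.5 to 163.7 CPM in insB:9-23 libraries and 80.0 to 107.4 CPM in vehicle libraries, with Itgam at 0 in insB:9-23 replicate 3. Among them Lyz2 had 61.8 CPM in insB:9-23 replicate 2 and 6.29 to 13.1 CPM in the other libraries. Endothelial markers summed to 491.3 to 526.5 CPM in insB:9-23 libraries and 504.8 to 563.0 CPM in vehicle libraries, with 9 of 12 genes below 0 and none at 0. The part of these cells in the matrix values was not tested, and in bulk tissue fewer cells of a type and less RNA per cell cannot be told apart.

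**Figure D4:**
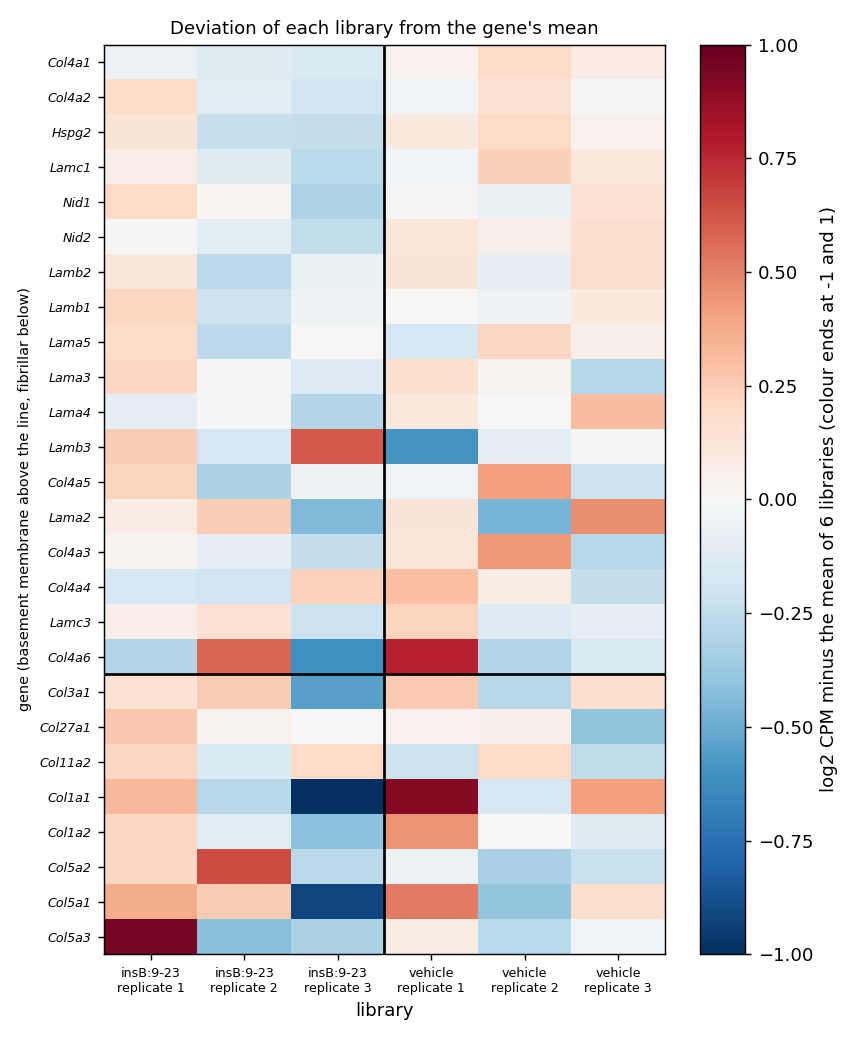
Deviation of log2 CPM in each library from the gene's mean over 6 libraries, for 18 of the 19 basement membrane genes (above the line) and the 8 fibrillar genes (below it), insB:9-23 libraries on the left. Blue marks values below the mean, and insB:9-23 replicate 3 holds the deepest ones, such as Col1a1 at -1.19, beyond the end of the colour scale.

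The spread within a group was larger for the fibrillar than for the basement membrane genes, as a description. Among genes with a mean of at least 5 CPM, the median coefficient of variation was 21.3% in the insB:9-23 group and 18.7% in the vehicle group for 5 fibrillar genes. It was 13.6% in the insB:9-23 group and 8.48% in the vehicle group for 14 basement membrane genes, and 10.4% and 9.06% in the same order for 10277 genes in all. The median SE of a log2 fold change was 0.14 for basement membrane genes and 0.26 for fibrillar genes.

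The other collagens included some at high levels. Col6a6, on chromosome 9 (105687809 to 105828160), had 137, 127 and 145 CPM in insB:9-23 libraries and 146, 145 and 138 CPM in vehicle libraries, with a log2 fold change of -0.07 ± 0.07 (SE, edgeR adjusted p = 0.91). Its neighbours Col6a5 and Col6a4 on the same strand, 27917 bases and then 28810 bases away, stayed below 2 CPM in every library. The classical collagen VI chains Col6a1, Col6a2 and Col6a3 averaged 9.39 ± 3.14, 7.39 ± 1.63 and 11.2 ± 1.77 CPM in the insB:9-23 group and 7.59 ± 0.415, 7.11 ± 0.451 and 12.6 ± 1.37 CPM in the vehicle group (SD, n = 3 each). All 3 overlapped, and their edgeR adjusted p-values were 0.90 to 0.98.

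Types XV and XVIII belong to the basement membrane zone and release fragments that act on vessels. Col15a1 had 31.6, 27.6 and 22.3 CPM in insB:9-23 libraries and 26.6, 30.0 and 28.8 CPM in vehicle libraries. Col18a1, the source of endostatin, had 3.24, 4.75 and 2.64 CPM in insB:9-23 libraries and 4.21, 4.60 and 3.00 CPM in vehicle libraries. Both overlapped between the groups (edgeR adjusted p = 0.96 and 0.95).

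The 6 genes with the smallest unadjusted p were Col4a1, Col25a1, Col9a2, Nid2, Lama4 and Col6a5. Col25a1, a transmembrane collagen known from neurons, had 1.54, 1.03 and 1.14 CPM in insB:9-23 libraries and 0.491, 0.625 and 0.206 CPM in vehicle libraries, from 52 to 90 and from 11 to 39 counts in the same order. It was the 1 gene of the 49 whose groups did not overlap in the higher direction, beside 6.4% of all genes tested. It had the largest log2 fold change, 1.48 ± 0.48 (SE, edgeR unadjusted p = 0.022, edgeR adjusted p = 0.88). Col9a2, a fibril-associated collagen of cartilage, had 2.61, 2.79 and 3.32 CPM in insB:9-23 libraries and 4.59, 5.26 and 3.20 CPM in vehicle libraries, overlapping through vehicle replicate 3 (log2 fold change -0.58 ± 0.24 SE, edgeR adjusted p = 0.88). Col6a5 had 1.20, 1.81 and 0.459 CPM in insB:9-23 libraries and 0.427, 0.737 and 0.412 CPM in vehicle libraries (log2 fold change 1.14 ± 0.57 SE, edgeR adjusted p = 0.88). Its log2 fold change was 0.65 without insB:9-23 replicate 2 and 1.73 with the acinar covariate.

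The remaining other collagens overlapped between the groups. Col7a1, which forms anchoring fibrils under epithelium, had 21.1, 14.2 and 30.1 CPM in insB:9-23 libraries and 16.4, 19.7 and 21.4 CPM in vehicle libraries. Col13a1, a transmembrane collagen, averaged 11.5 ± 1.45 CPM in the insB:9-23 group and 11.7 ± 0.972 CPM in the vehicle group (SD, n = 3 each). Of the 10 genes not tested, Col10a1, Col19a1, Col22a1, Col23a1, Col9a1 and Col17a1 are other collagens. All 10 had 0 counts in at least 1 library and at most 24 in any, and 3 counts correspond to 0.0475 to 0.0655 CPM here. A fit with no filter except on genes at 0 in every library tested all 59 genes and called 0.

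Genes whose products fold, trim, bind or degrade these proteins were described as well. Of 91 genes in 6 such lists, 85 were tested. edgeR, DESeq2 and limma-voom each called 0 of them, and each had 5 at an unadjusted p below 0.05, close to the 5.55%, 6.59% and 6.21% of all genes in the same 3 fits. In the list of collagen folding and hydroxylation enzymes, 7 of 16 were below 0 (median log2 fold change 0.08). Plod1, a lysyl hydroxylase, averaged 19.6 ± 1.13 CPM in the insB:9-23 group and 24.4 ± 2.7 CPM in the vehicle group, and P3h1, a prolyl 3-hydroxylase, averaged 17.2 ± 0.615 and 20.2 ± 0.761 CPM in the same order (SD, n = 3 each; edgeR adjusted p = 0.88 for both). For both the groups did not overlap. Of the 16, 3 were lower without overlap, beside 7.12% of all genes tested, and 1 was higher without overlap, beside 6.4%.

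Among receptors, 6 of 13 genes were below 0 (median 0.02). Itga2, a collagen-binding integrin chain, averaged 10.2 ± 0.346 CPM in the insB:9-23 group and 8.30 ± 1.01 CPM in the vehicle group, and Ddr1, a collagen receptor kinase, averaged 151.8 ± 17.5 and 171.3 ± 10.2 CPM in the same order (SD, n = 3 each; edgeR adjusted p = 0.88 for both). In the list of trimming and crosslinking enzymes 6 of 12 were below 0 (median -0.03). There the transglutaminase Tgm2 averaged 11.2 ± 1.49 CPM in the insB:9-23 group and 8.78 ± 0.687 CPM in the vehicle group, and the lysyl oxidase Lox was under 1 CPM in every library.

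Of the other basement membrane proteins, 8 of 14 were below 0 (median -0.03). Tinagl1, a matrix protein related to a kidney basement membrane antigen, had 8.37, 8.07 and 8.43 CPM in insB:9-23 libraries and 5.75, 6.59 and 6.30 CPM in vehicle libraries, without overlap (log2 fold change 0.42 ± 0.12 SE, edgeR adjusted p = 0.88). Of the 14, 2 were higher without overlap, beside 6.4% of all genes tested, and 1 was lower without overlap, beside 7.12%. Of the proteoglycans and glycoproteins that sit on fibrils, 10 of 15 were below 0 (median -0.05), and Fmod and Fbn2, those with the smallest p, were under 1.1 CPM in every library. Of the matrix proteases and their inhibitors 8 of 15 were below 0 (median -0.03), and Mmp12 and Mmp19, those with the smallest p, were under 2 CPM in every library.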

How the data were processed

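The deposited files hold unnormalised read counts for Ensembl gene IDs, with a separate file for every library. Tools listed in the submitters' processing notes are HISAT, DESeq 1.8.3 and featureCounts 1.5.0-p3, and the build is GRCm38; the notes as given here do not say what each did. Per the labels' protocols, libraries were made with a KAPA stranded kit. The authors' annotation release and strand setting are not stated there. Sample titles gave groups and replicate numbers.

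Symbols, positions and exon lengths came from GENCODE M21 on GRCm38 (55240 of 55421 IDs matched, and the rest held at most 0.003% of counts). The count test was edgeR 4.0.16 (R 4.3.3), with filterByExpr (17016 genes kept), TMM scaling, the robust quasi-likelihood F test and Benjamini-Hochberg adjustment over all genes tested. The SE is the log2 fold change divided by the root of F. DESeq2 1.42.0 and limma-voom (limma 3.58.1), other scalings and filters, a replicate block, an acinar covariate and leaving out each library were alternatives. On data simulated for insB:9-23 against vehicle (16495 genes tested), edgeR found 72 of 99 genes given a 4-fold change and 19 of 100 given a 2-fold change. Of its 97 calls 6 were false. The changed genes were drawn from those with a mean above 1 CPM. Some collagen genes tested here had lower means, down to 0.328 CPM, and the simulation does not cover them.

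The genes, classes and lists were chosen with earlier results of these data known. Named singly were the 6 basement membrane and 4 fibrillar genes highest by RPKM, the 6 genes with the smallest p, chain pairs and some further fixed genes, and in each list the 2 genes with the smallest p; others were named after their values were seen. Some genes are counted in the totals and not reported singly here. The SDs and SEs include differences between libraries, while the counting floors cover counting error only.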

Additional observations from a re-analysis of the deposited data

How the results depend on the processing

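No collagen, laminin or related gene was called under any of the 15 alternatives (lowest adjusted p of a gene named by the rule, 0.35), and no gene of the 6 lists was. The count over all genes, 14 in edgeR, was 116 with DESeq2, 7 with the summed acinar markers as a covariate and 16 to 26 with 1 library left out. Replicate numbers are not stated to pair the libraries. Same-numbered deviations correlated at -0.06 to -0.02, which cannot settle whether the libraries were paired. With the replicate number as a block, edgeR called 0 genes (605 at an unadjusted p below 0.05). The cause of these moves was not tested.

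The basement membrane median, -0.11, was -0.27 by library totals alone, where the median of all genes was -0.15, and -0.19 to -0.072 with 1 library left out (-0.19 without insB:9-23 replicate 1). The fibrillar median, 0.05, was -0.16 to 0.19 in those fits and 0.27 with the acinar covariate, within the SD between replicates. The log2 difference in the class ratio, -0.10, was -0.24 to -0.01 with 1 library left out and 0.07 with type IV chains against types I and III only.

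Of 372 values of named genes, 23 had the opposite sign. With the acinar covariate they were Col15a1 (0.072), Col18a1 (0.18), Col1a2 (0.037), Col3a1 (0.24), Col4a6 (0.31), Nid1 (0.10) and Fn1 (0.91 ± 0.25 SE, edgeR adjusted p = 0.94), and by library totals alone Col6a2 (-0.079). With 1 library left out, the log2 fold changes ran from -0.19 to 0.060 for Col15a1, -0.42 to 0.024 for Col18a1, -0.23 to 0.13 for Col3a1, -0.19 to 0.0043 for Col4a2, -0.24 to 0.041 for Col4a4, -0.26 to 0.092 for Col4a5, -0.63 to 0.21 for Col4a6, -0.13 to 0.18 for Col6a2, -0.40 to 0.43 for Fn1 and -0.16 to 0.082 for Nid1. Without a change of sign, the range was -1.11 to -0.39 for Col1a1, 0.65 to 1.51 for Col6a5, -0.35 to -0.15 for Hspg2, -0.34 to -0.17 for Lama4, -0.30 to -0.13 for Lamc1 and -0.38 to -0.03 for Col4a3. Counting error is largest for the 10 genes not tested, each at 0 counts in at least 1 library.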
